A study of Homo sapiens with 3 samples.

Results

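The 9 genes described here encode enzymes of the mevalonate pathway, from the synthesis of HMG-CoA out of acetoacetyl-CoA to the formation of squalene epoxide. They are HMGCS1, MVK, PMVK, MVD, IDI1, FDPS, GGPS1, FDFT1 and SQLE, and they were matched by gene symbol to 9 of the 51136 gene rows of the count table. The set was chosen by the fold changes of these same libraries, which had already been seen, so the values below describe it and carry no test. Expression was measured by RNA sequencing in PANC-1, a cell line from a human pancreatic ductal carcinoma, in 3 conditions with 1 library each. The control library came from cells given no agent, the Rg3 library from cells given 200 µM ginsenoside Rg3, a saponin of ginseng, and the TAM library from cells given 50 µM tamoxifen, an antiestrogen, each treatment lasting 24 h. All cells were grown in medium with serum, and the vehicle and the culture time of the control were not given in the labels.

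The mevalonate pathway builds the isoprenoid units from which cells make cholesterol, dolichol, ubiquinone and the lipid anchors of prenylated proteins such as small GTPases. Mevalonate is phosphorylated, decarboxylated and condensed into farnesyl diphosphate. From there the route divides, with GGPS1 adding another isoprene unit for protein prenylation and FDFT1 and SQLE committing carbon to sterols. In most cells these genes are transcribed under SREBP-2, a membrane-bound factor that is released to the nucleus when sterols in the endoplasmic reticulum run low, and that acts together with the factors NF-Y and Sp1.

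The 3 libraries held 11300766 counts (control), 12861693 counts (Rg3) and 11321442 counts (TAM). Levels are given in counts-per-million (CPM) after TMM scaling, which sets the bulk of genes equal between libraries, and brackets give exact 95% counting intervals. With no replicate culture, these intervals cover counting error only, and a difference between conditions cannot be told apart from a difference between single cultures. A gene was called higher when its fold was over 1.5 and lower when it was under 0.67. All 7 genes listed for the epithelial line, among them the mesenchymal gene VIM, had reads in each library. Their summed level was 7330 CPM of library totals in the control, 4312 with Rg3 and 6197 with TAM. VIM alone held 55276 of the 82836 summed counts in the control, 39783 of 55454 with Rg3 and 42048 of 70160 with TAM. Among the 7, KRT8 had log2 fold changes of -1.30 with Rg3 and 0.12 with TAM, and KRT19 of -1.52 and -1.67. CDH1 had 76, 39 and 5 counts in control, Rg3 and TAM. The 5 acinar and 3 endocrine pancreatic markers were at 0. Of 4 leukocyte markers, CD14 had 97, 46 and 37 counts in control, Rg3 and TAM, and the others at most 1. The 3 endothelial and 3 hepatocyte markers each had at most 3 counts in a library. Of 4 fibroblast markers, 3 had reads, with 1858 counts in the control, 1011 with Rg3 and 739 with TAM. COL1A1 alone held 1853, 1005 and 734 of these, and the others had at most 4 counts in a library. Fold changes over all genes moved with the GC content of the transcripts, with a Spearman correlation of -0.75 for Rg3 over 14279 genes and 0.44 for TAM over 14019 genes. For that reason a further value, from which the smooth dependence of fold on GC content and transcript length (the composition trend) was subtracted, is given for each member, and for other genes where it changed a call. The part of this trend and of the marker levels in the results below was not tested.

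Promoter sequences were read from RefSeq (GRCh38.p14), as windows of 250 bases before and 50 bases after each start, for 7 of the 9 members with 12 starts. Entries were found for HMGCS1, MVK, PMVK, MVD, IDI1, FDPS and GGPS1. The motifs searched on both strands were TCACNCCAC (a sterol regulatory element, bound by SREBP), CCAAT (bound by NF-Y), GGGCGG (a GC box, bound by Sp1) and CACGTG (an E-box). In MVK a near match of the sterol regulatory element shared a base with a GC box, and in the first start of IDI1 a pair of CCAAT copies on opposite strands overlapped. The letters CCAAT stood in at least 1 window of 6 of the 7 members, against 39.72% of all 27305 genes of the table. At least 2 copies in a single window were found in 5 members, compared with 12.91% of all genes, and at least 3 copies in 4 members, compared with 3.92%. PMVK was the member with no CCAAT in any window. Counted by window, CCAAT was in 7 of the 12, against 34.61% of all windows. The exact sterol regulatory element was in 0 of the 12 windows, against 1.13% of all 35116 windows. With at most 1 mismatch in its fixed letters it was in 4 of the 12, against 24.49% of all windows. GGGCGG was in 11 of the 12 windows and in all 7 members, against 48.3% of all genes, and CACGTG was in 0 of the 12, against 7.26% of windows. A match describes the letters only, and a window without a match says nothing about sites elsewhere.

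The windows of 4 members are shown 5′ to 3′, since they span the range from 5 copies of CCAAT to none. Capitals mark CCAAT or its reverse complement ATTGG. HMGCS1 is the second of its annotated starts (chr5:43313363-43313662, minus strand), MVK lies at chr12:109573544-109573843 (plus strand), FDPS at chr1:155308616-155308915 (plus strand) and PMVK at chr1:154936670-154936969 (minus strand).
HMGCS1: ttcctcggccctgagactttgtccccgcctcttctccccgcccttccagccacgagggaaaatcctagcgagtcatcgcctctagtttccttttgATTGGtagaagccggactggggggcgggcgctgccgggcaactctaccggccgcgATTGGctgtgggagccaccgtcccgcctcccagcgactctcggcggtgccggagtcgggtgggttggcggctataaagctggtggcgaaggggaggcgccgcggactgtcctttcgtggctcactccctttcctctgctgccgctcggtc
MVK: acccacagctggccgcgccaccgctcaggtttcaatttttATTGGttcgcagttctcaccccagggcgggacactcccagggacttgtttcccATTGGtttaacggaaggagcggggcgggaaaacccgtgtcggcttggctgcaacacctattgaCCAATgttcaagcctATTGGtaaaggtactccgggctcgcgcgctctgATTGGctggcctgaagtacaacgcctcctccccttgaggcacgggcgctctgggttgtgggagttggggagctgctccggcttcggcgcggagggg
FDPS: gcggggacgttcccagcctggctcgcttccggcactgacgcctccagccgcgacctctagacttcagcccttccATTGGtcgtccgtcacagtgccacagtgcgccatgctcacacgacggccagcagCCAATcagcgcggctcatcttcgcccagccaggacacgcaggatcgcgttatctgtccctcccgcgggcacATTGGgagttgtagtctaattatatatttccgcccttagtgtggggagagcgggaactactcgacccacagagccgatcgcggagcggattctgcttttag
PMVK: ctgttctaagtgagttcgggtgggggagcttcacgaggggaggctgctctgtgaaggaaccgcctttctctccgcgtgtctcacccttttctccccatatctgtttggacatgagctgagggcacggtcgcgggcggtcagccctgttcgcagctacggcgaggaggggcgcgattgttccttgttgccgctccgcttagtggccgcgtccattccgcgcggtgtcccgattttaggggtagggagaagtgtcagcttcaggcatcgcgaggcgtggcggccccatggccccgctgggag
MVK held 5 copies, FDPS 3 and the HMGCS1 window 2. The windows not shown held 3 copies in MVD, 3 and 2 in the first and the second start of IDI1, and 1 in the second start of GGPS1. MVK, IDI1 and FDPS were the members with a near match to the sterol regulatory element, as in MVK, at position -195 from the start (TCACCCCAG).

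**Figure D1:**
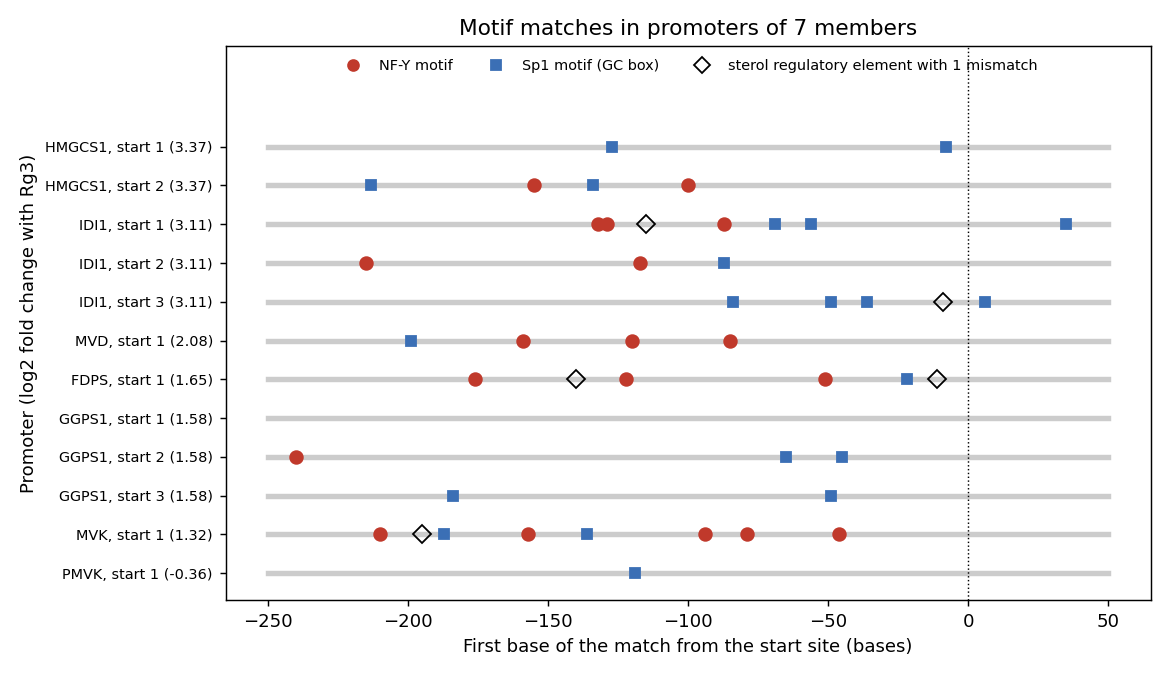
Position of motif matches (x axis, bases from the annotated start) in the 12 promoter windows of 7 members, ordered by log2 fold change with Rg3, which stands in brackets after each name. Red circles are CCAAT (NF-Y), blue squares GGGCGG (Sp1) and open diamonds the sterol regulatory element with 1 mismatch. MVK shows 5 CCAAT copies and PMVK, in the lowest line, shows none.

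With Rg3, 8 of the 9 members were called higher than in the control and 0 lower. Over all 16487 genes compared, 25.0% were called higher and 19.5% lower. Since these contrasts were known when the set was chosen, nothing is read from the gap between the set and that background. The increases ran from 2.51-fold in MVK to 10.3-fold in HMGCS1, and PMVK was the member that was not higher, at 0.777-fold. Without the composition trend the 8 ran from 1.90-fold in GGPS1 to 6.63-fold in MVD, with HMGCS1 at 6.46-fold. The median log2 fold change of the 9 members was 1.75, or 3.38-fold, compared with 0.04 over all genes. Together the 9 genes took 0.0606% of the control reads, 0.230% of the Rg3 reads and 0.0809% of the TAM reads. Their summed level was 597 CPM in the control, 2058 with Rg3, or 3.45-fold higher, and 920 with TAM, or 1.54-fold higher. As these are bulk libraries, more RNA per cell and more cells with that RNA cannot be told apart.

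**Figure D2:**
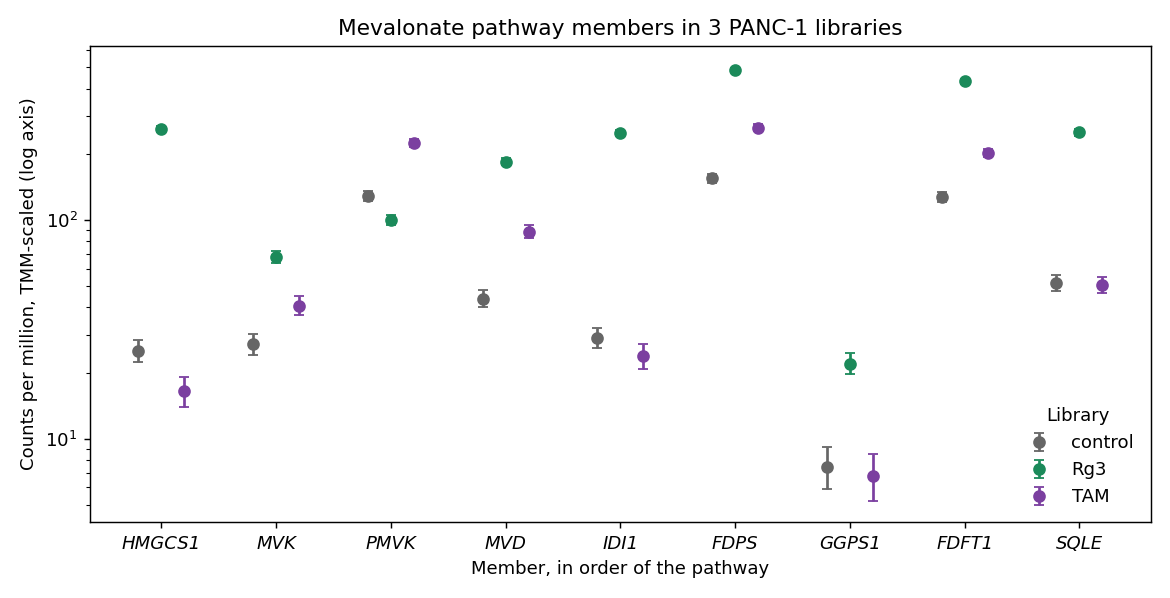
Level of each member (y axis, TMM-scaled CPM, log axis) in the control, Rg3 and TAM libraries, with members in pathway order on the x axis. Points are single libraries and bars exact 95% counting intervals. The Rg3 point lies above the other 2 for every member except PMVK, in which it is the lowest of the 3.

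HMGCS1 (chr5:43289395-43313512 in GENCODE 29, GRCh38, minus strand) encodes the cytosolic synthase that makes HMG-CoA, the entry to the pathway. It had 291 counts in the control, 3776 with Rg3 and 164 with TAM, or 25.3, 262 and 16.5 CPM. The Rg3 library was thus the high one, and the TAM library lay below the control with no overlap of counting intervals. The log2 fold change with Rg3 was 3.37 (3.20 to 3.55), and 5 of the 16487 genes, HMGCS1 among them, had a value at or above it. With TAM the log2 fold change was -0.62 (-0.91 to -0.34). Without the composition trend these values were 2.69 and -0.25, which ended the call with TAM. Of the 50-base stretches of its longest coding transcript, 17.5% also occur in AC114947.2 on the opposite strand.

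MVK, PMVK and MVD turn mevalonate into isopentenyl diphosphate, MVK and PMVK by adding phosphates and MVD by removing a carboxyl group. MVK (chr12:109573255-109598117, plus strand) had 311 counts in the control, 977 with Rg3 and 405 with TAM, or 27.1, 67.8 and 40.7 CPM. Both treated libraries were above the control, Rg3 the more so. The log2 fold change of MVK was 1.32 (1.14 to 1.51) with Rg3, the smallest of the 8 called members, and 0.59 (0.37 to 0.80) with TAM. The latter, 1.502-fold, sat on the edge of the call. Without the trend the values were 1.81 and 0.39, so that the call with TAM ended. Exons of MVK overlap those of MMAB on the opposite strand over 306 bases, and MMAB itself had 227, 435 and 284 counts in control, Rg3 and TAM.

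PMVK (chr1:154924734-154936991, minus strand) went its own way. It had 1479 counts in the control, 1442 with Rg3 and 2241 with TAM, or 129, 100 and 225 CPM. Here TAM was the highest library and Rg3 the lowest. The log2 fold change was -0.36 (-0.47 to -0.26) with Rg3 and 0.81 (0.71 to 0.90) with TAM. Without the composition trend it was 0.14 with Rg3 and 0.36 with TAM, so the sign with Rg3 turned and the call with TAM ended. In the Rg3 library PMVK took 4.87% of the reads of the 9 members, compared with 21.6% in the control and 24.5% with TAM.

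MVD (chr16:88651935-88663161, minus strand) had 503 counts in the control, 2664 with Rg3 and 881 with TAM, or 43.8, 185 and 88.5 CPM. The order of the libraries was that of MVK. Its log2 fold change was 2.08 (1.94 to 2.22) with Rg3, and with TAM it was 1.01 (0.85 to 1.18), the largest of the 9 members in that comparison. MVD has the most GC-rich transcript of the set, at 63.7%. Without the trend, the value with Rg3 was 2.73, and the value with TAM was 0.58, just under the call.

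IDI1 (chr10:1039152-1049170, minus strand) interconverts isopentenyl diphosphate and dimethylallyl diphosphate, the pair of building blocks of every isoprenoid. It had 333 counts in the control, 3595 with Rg3 and 237 with TAM, or 29.0, 250 and 23.8 CPM. As for HMGCS1, the Rg3 library was high and the TAM library the lowest. For IDI1 the log2 fold change was 3.11 (2.94 to 3.27) with Rg3 and -0.28 (-0.53 to -0.04) with TAM. Without the trend these were 2.49 and 0.04, the sign with TAM having turned. Over all genes, 8 were at or above its value with Rg3, IDI1 included. The paralog IDI2 and the antisense gene IDI2-AS1, which overlaps IDI1 exons, had 0 counts in the 3 libraries. HMGCS1 and IDI1 made up 4.25% and 4.86% of the members' reads in the control, and 12.7% and 12.1% with Rg3. Without this pair the summed level of the others was 2.85-fold higher with Rg3 and 1.62-fold higher with TAM.

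FDPS and GGPS1 encode the prenyl transferases that build farnesyl and geranylgeranyl diphosphate, the donors for protein prenylation, and FDPS is the target of nitrogen-containing bisphosphonates. FDPS (chr1:155308748-155320666, plus strand) had 1786 counts in the control, 7014 with Rg3 and 2637 with TAM, or 156, 487 and 265 CPM. Both treated libraries were above the control. Its log2 fold change was 1.65 (1.57 to 1.72) with Rg3 and 0.77 (0.68 to 0.86) with TAM, and without the trend it was 2.05 and 0.41, the latter no longer called. FDPS has 10 pseudogene rows, which held 183 counts in the control, 594 with Rg3 and 198 with TAM in sum. Their log2 fold changes were 1.37 (1.13 to 1.62) with Rg3 and 0.32 (0.02 to 0.62) with TAM. When these rows were added to FDPS, its values were 1.62 and 0.73, so the assignment of reads between the copies moved it little. A further 27.8% of its 50-base stretches occur in RUSC1-AS1 on the opposite strand, which had 4, 2 and 12 counts.

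GGPS1 (chr1:235327350-235344532, plus strand) was the least read member, with 85 counts in the control, 318 with Rg3 and 67 with TAM, or 7.40, 22.1 and 6.73 CPM. The counting intervals of control and TAM overlapped, and Rg3 stood above both. Its log2 fold change was 1.58 (1.23 to 1.94) with Rg3 and -0.14 (-0.62 to 0.34) with TAM. Of its 50-base stretches, 23.2% also occur in TBCE on the same strand, so reads of these genes can be exchanged. TBCE had 275, 626 and 260 counts, with a log2 fold change of 0.86 with Rg3 and 0.12 with TAM. Genes of similar GC content, within 2 percentage points, had a median log2 fold change of 0.67 with Rg3, and without the trend GGPS1 was at 0.93 with Rg3, the lowest of the 8 called members, and at 0.14 with TAM.

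FDFT1 and SQLE, both on chromosome 8, open the sterol branch. FDFT1 joins a pair of farnesyl diphosphates to squalene, and SQLE, the target of terbinafine in fungi, adds the oxygen that gives squalene epoxide and is a further rate-limiting step of cholesterol synthesis. FDFT1 (11795573 to 11839309, plus strand) had 1470 counts in the control, 6223 with Rg3 and 2021 with TAM, or 128, 432 and 203 CPM. Its log2 fold change was 1.75 (1.67 to 1.84) with Rg3 and 0.67 (0.57 to 0.76) with TAM, and without the trend it was 1.70 and 0.60. SQLE (124998497 to 125022283, plus strand) had 594 counts in the control, 3628 with Rg3 and 503 with TAM, or 51.7, 252 and 50.5 CPM. Its log2 fold change was 2.28 (2.16 to 2.41) with Rg3 and -0.03 (-0.21 to 0.14) with TAM, or 2.07 and 0.01 without the trend. At this depth and after TMM scaling no difference of SQLE between TAM and control was detectable, whereas Rg3 was well above both. With division by library totals the value of SQLE with TAM was -0.24, outside that counting interval.

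With TAM, 5 members were called higher than in the control (MVK, PMVK, MVD, FDPS and FDFT1), 1 lower (HMGCS1) and 3 neither (IDI1, GGPS1 and SQLE). The background was 17.4% higher and 23.8% lower of 16079 genes. The median log2 fold change of the members was 0.59, compared with -0.02 over all genes. The calls moved with base composition, as the 5 members called higher had GC contents from 48.6% to 63.7% and the other 4 from 40.2% to 46.5%. Across the 9 members, which share the same pair of libraries, the log2 fold change with TAM had a Pearson correlation of 0.92 and a Spearman correlation of 0.93 with GC content, given as a description. Without the composition trend, 1 member was called higher (FDFT1) and 0 lower, and the median was 0.36. Over all 14019 genes with a GC value, 1937 were then called higher and 2181 lower. With division by library totals, 2 members were called higher (PMVK at 0.60 and MVD at 0.81) and HMGCS1 stayed lower. Of the 16079 genes, 1576 were then higher and 5259 lower. Thus no member was called higher with TAM under each of the TMM, library-total and trend-removed scalings.

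The values with Rg3 were related to GC content in another way. Across the 9 members the Pearson correlation with GC content was -0.61 and the Spearman correlation -0.55, and 3 GC-rich members, MVK, MVD and FDPS, lay far above genes of like composition. For MVD the genes within 2 percentage points of GC had a median log2 fold change of -0.64, and for MVK -0.50. PMVK, with a GC content of 59.5%, was at -0.36 against -0.54 for genes of like composition, at percentile 69.8 of them. The other 8 members were at percentile 97.4 (GGPS1) or higher. These percentiles are a description only, since the set was chosen by these same fold changes. With the trend removed, 8 members were still called higher with Rg3, and the median log2 fold change of the members was 2.05. Of the 14279 genes with a GC value, 1183 were then called higher and 1511 lower. Against step number in the pathway, the fold with Rg3 had a Spearman correlation of 0.05 over the 9 members, with high and low values among both early and late enzymes.

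**Figure D3:**
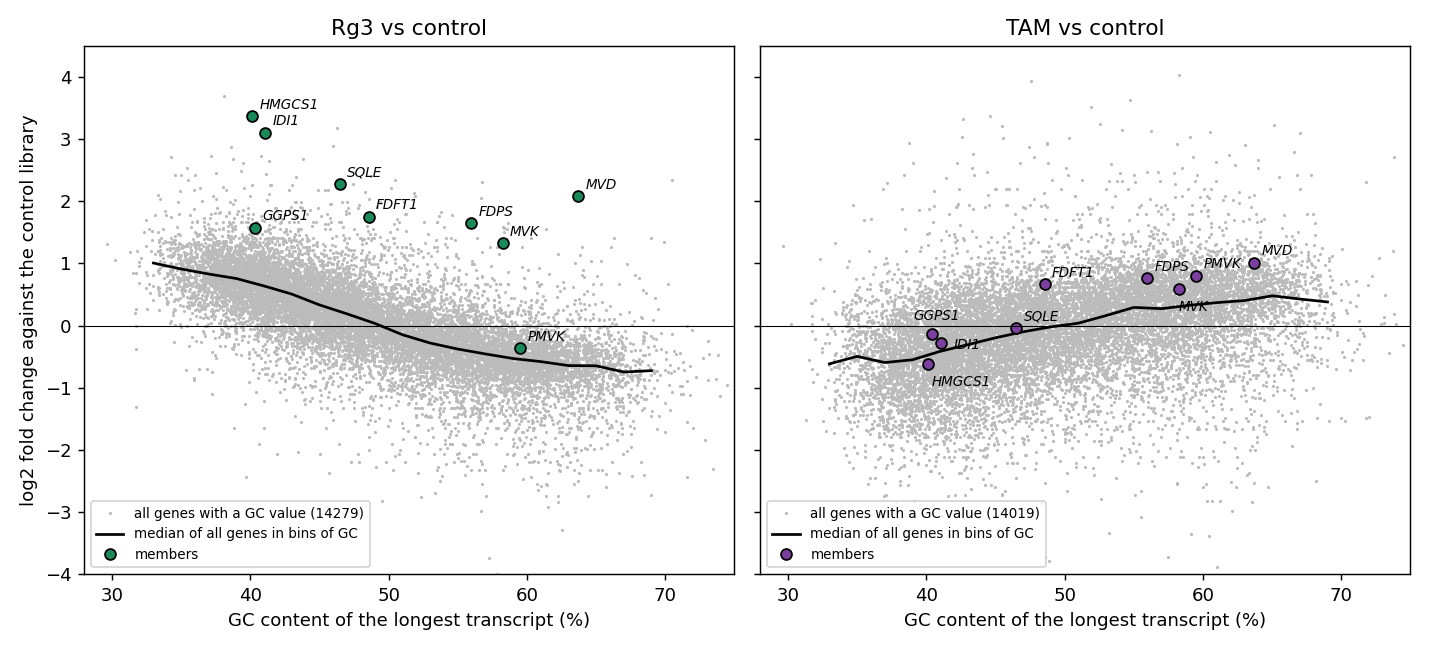
GC content of the longest transcript (x axis, %) against log2 fold change (y axis) for Rg3 (left) and TAM (right). Grey points are all genes with a GC value, the black line their median in bins of GC, and coloured points the 9 members; points beyond the axis are not drawn. With Rg3, 8 members lie above the line and PMVK close to it. With TAM the members rise with GC content, from HMGCS1 at -0.62 to MVD at 1.01. All but HMGCS1 are above the median of genes within 2 percentage points of GC, by 0.09 (SQLE) to 0.72 (FDFT1).

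**Figure D4:**
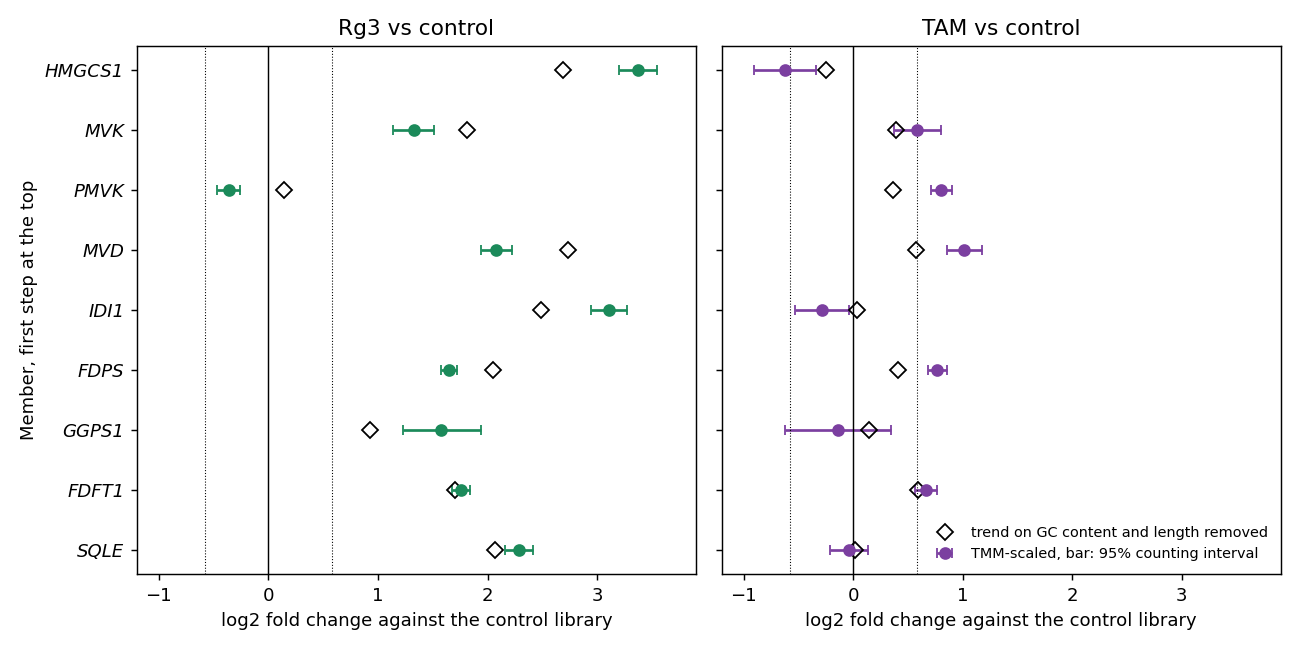
Log2 fold change against control (x axis) for each member in pathway order, with Rg3 (left) and TAM (right). Filled circles are TMM-scaled values with exact 95% counting intervals, open diamonds the values without the composition trend, and dotted lines the folds of 1.5 and 0.67. With Rg3, 8 circles and 8 diamonds lie right of the upper line. With TAM, 5 circles but 1 diamond (FDFT1) do.

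Between the treated libraries, TAM was lower than Rg3 in 8 members and higher in PMVK. Over all 16493 genes, 30.0% were called higher and 35.4% lower. These values share their libraries with the comparisons above and add no independent evidence. The gap was widest in HMGCS1, 15.9-fold lower with TAM at a log2 fold change of -3.99 (-4.23 to -3.77), followed by IDI1 (10.5-fold lower) and SQLE (4.98-fold lower). It was narrowest in MVK, at -0.74. Without the trend the order differed, with HMGCS1 at -2.92, IDI1 at -2.42, MVD at -2.15 and SQLE at -2.04, MVK at -1.41 and GGPS1 narrowest at -0.76. PMVK was 2.25-fold higher with TAM, at 1.17 (1.07 to 1.26), but at 0.20 without the trend, which ended the call. The doses of Rg3 and TAM differed, so the values stand side by side only. The members nearest to the limits of the calls were MVK at 1.32 inside and PMVK at -0.36 outside for Rg3. For TAM they were MVK at 0.59 inside and SQLE at -0.03 outside on the higher side, and HMGCS1 at -0.62 inside and IDI1 at -0.28 outside on the lower side.

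Per kilobase of the longest annotated transcript, PMVK had the highest level in the control, at 101 CPM per kilobase (95.6 to 106). It was followed by FDPS at 77.1 and FDFT1 at 48.1. MVD at 18.6 (17.0 to 20.3) and SQLE at 17.5 (16.1 to 18.9) did not differ beyond counting error. IDI1 at 8.61, HMGCS1 at 7.23 and MVK at 6.59 each overlapped their neighbour, and GGPS1 was lowest at 2.56 (2.04 to 3.16). The middle of this order in the control changed with the length used. MVD and SQLE were at 9.29 and 12.0 with the union of exons, and at 24.0 and 17.5 with the longest protein-coding transcript. With the latter MVK was at 9.86, above IDI1 and HMGCS1. With Rg3 and the longest annotated transcript, the order was led by FDPS at 241 and FDFT1 at 162, with SQLE at 85.1. MVD, PMVK, HMGCS1 and IDI1 then lay between 74.1 and 78.7 with overlapping intervals, and MVK at 16.5 and GGPS1 at 7.63 closed it. This grouping holds for that length only, since with the union of exons MVD was at 39.2, HMGCS1 at 55.8, IDI1 at 57.5 and PMVK at 78.2, and with the longest protein-coding transcript MVD was at 101. With TAM the order was again PMVK at 176, FDPS at 131, FDFT1 at 76.3, MVD at 37.6 and SQLE at 17.1, with HMGCS1 at 4.70 now next to last. The lead of PMVK depends on the length used, since with the longest protein-coding transcript FDPS stood at 105 in the control and 179 with TAM, ahead of PMVK.

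The enzymes next to the set were given as a list of 10 neighbouring steps, of which 7 passed the minimum of 10 counts in either library. With Rg3, 5 of these 7 were called higher and 0 lower, beside 25.0% and 19.5% of all genes. Their median log2 fold change was 1.58. ACAT2, which makes acetoacetyl-CoA in the cytosol, had 849, 4919 and 1581 counts, with log2 fold changes of 2.21 and 1.10. These were like those of MVD, but less so without the trend, where ACAT2 was at 2.27 and MVD at 2.73 with Rg3. ACAT2 was then at 1.04 with TAM and still called, whereas MVD was at 0.58 and not called. The mitochondrial counterpart of ACAT2, ACAT1, of ketone body breakdown, was not called, at 0.40 and -0.37. ACSS2, which makes cytosolic acetyl-CoA from acetate, was at 1.79 with Rg3 and 0.09 with TAM. ACLY, which makes it from citrate, was at 1.24 and -0.31. With TAM, 1 of the 7 (ACAT2) was called higher and 0 lower, beside 17.4% and 23.8% of all genes.

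Beyond SQLE, the 11 post-squalene enzymes, which start with LSS, the enzyme that closes the sterol ring, were led with Rg3 by MSMO1 at 3.69 (122, 1970 and 120 counts) and SC5D at 2.87. Of the 11, 10 were called higher with Rg3, beside 25.0% of all genes, and TM7SF2 at 0.27 was not. Without the trend 10 were again called higher, beside 1183 of 14279 genes. TM7SF2 was then among them at 0.93 and LBR, at 0.81 before, was not, at 0.00. With TAM, 0 of the 11 were called in either direction, beside 17.4% higher and 23.8% lower of all genes. Their values ran from -0.42 (LBR) and -0.27 (CYP51A1) to 0.53 (DHCR7) and 0.53 (EBP). LSS itself had 1517, 5692 and 1690 counts, with log2 fold changes of 1.58 and 0.36. The list of 19 genes that use isoprenoids, such as prenyl transferases and dolichol and ubiquinone enzymes, had a median of 0.15 with Rg3, with 6 called higher and 1 lower, beside the 25.0% and 19.5% of all genes. Without the trend 0 were called higher and 2 lower, beside 1183 and 1511 of 14279 genes. Its highest genes were CHM, the escort protein of Rab prenylation, at 1.41 and FNTA, a subunit of farnesyl and geranylgeranyl transferase, at 1.22. Its lowest were RCE1, a protease of prenylated proteins, at -0.64 and RABGGTA at -0.52. Without the trend CHM was at 0.55, FNTA at 0.48 and RCE1 at 0.00, all within the limits of the call. With TAM, 2 of the 19 were called higher, ICMT at 0.68 and DHDDS at 0.60, and 5 lower, with CHML at -1.21 and CHM at -0.79 the lowest, beside 17.4% and 23.8% of all genes. Without the trend these 5 calls ended, CHML being at -0.38 and CHM at -0.11, and so did that of DHDDS, at 0.45. In all, 3 were then called higher and 0 lower, beside 1937 and 2181 of 14019 genes.

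In the list of sterol sensing and uptake, 9 of 10 genes were compared. With Rg3, 4 were called higher and 1 lower, beside 25.0% and 19.5% of all genes. INSIG1, which holds the SREBP complex in the endoplasmic reticulum and is itself induced by SREBP, had 355, 3291 and 244 counts, with log2 fold changes of 2.89 and -0.33. STARD4, a sterol carrier, had 45, 371 and 14 counts, with 2.72 and -1.48. SREBF2, the gene of SREBP-2, was not called in either comparison, at 0.44 and -0.25, but was above the limit with Rg3 without the trend, at 0.86. SREBF1, the gene of SREBP-1, was the lowest of the list in both, at -0.93 and -2.20. Without the trend its call with Rg3 ended, at -0.28, and MBTPS2 was lowest at -0.41, while with TAM SREBF1 was at -2.41. SCAP, the escort of SREBP, was at -0.46 and 0.34. INSIG2, the paralog of INSIG1, was at 1.31 and -0.005, and its call with Rg3 ended without the trend, at 0.40. With TAM, 0 of the 9 were called higher and 3 lower, beside 17.4% and 23.8% of all genes. Without the trend 2 were called lower, beside 2181 of 14019 genes, since the call of MBTPS2, at -1.12 before, ended at -0.52.

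**Figure D5:**
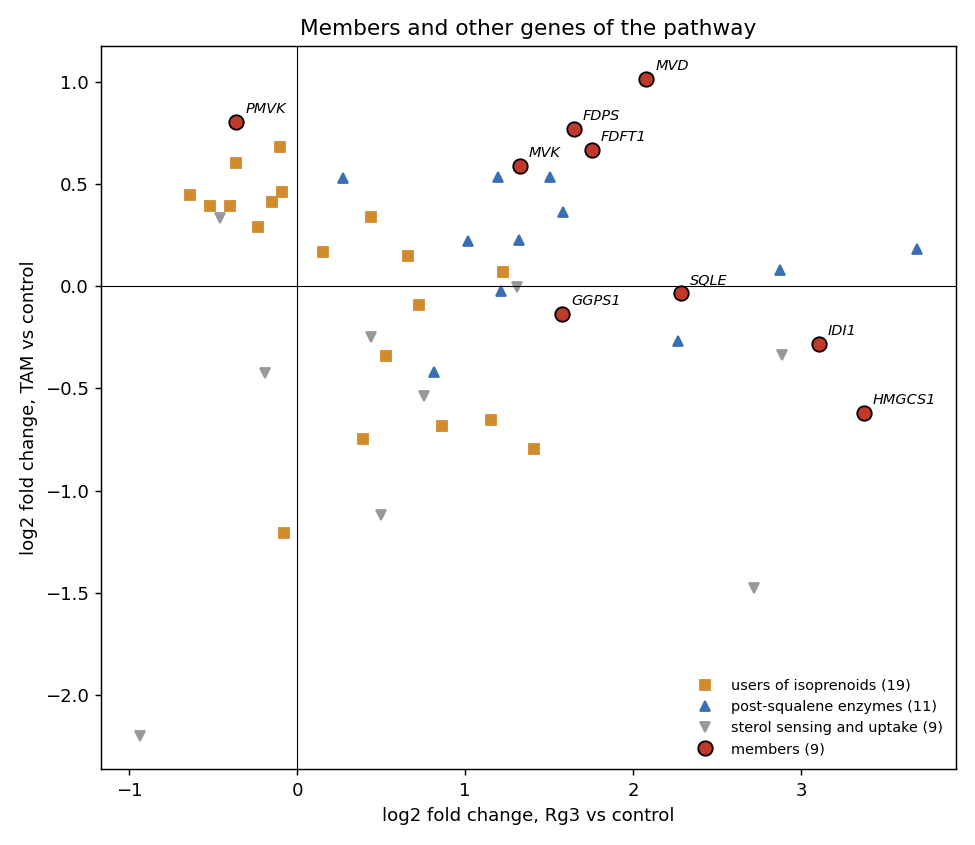
Log2 fold change with Rg3 (x axis) against log2 fold change with TAM (y axis), each against the same control library, for the 9 members (red circles) and 3 lists of related genes. Points are genes, and both axes share the control. Post-squalene enzymes lie to the right with the members, from 0.27 to 3.69 on the x axis, and PMVK lies left of 0 at -0.36, among users of isoprenoids.

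The genes most like the members were sought by distance from the members' median point in this plane (1.75 with Rg3 and 0.59 with TAM), over 11087 genes with at least 100 counts in a library. The 10 nearest were PKIB, XRCC4, DNAJC24, RPL21P101, PCDH9, DHCR7, RPL21P51, LSS, HSPA13 and CLGN, at distances from 0.08 to 0.33 log2 units. DHCR7 and LSS of cholesterol synthesis were among them. The others had at most 85 counts in the control, and PKIB had 25, 109 and 31 counts in control, Rg3 and TAM. No counting interval was computed for these distances, and the composition trend was left in, so nothing is read from their order. Of the members themselves, FDFT1 was nearest to that point, at 0.08, and PMVK farthest, at 2.13. The point describes FDFT1, FDPS and MVK better than HMGCS1, IDI1 or PMVK.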

How the data were processed

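RNA was sequenced on an Ion Proton instrument. The authors checked the reads with FAST-QC, ran TopHat for the alignment and deposited unnormalized counts of reads for each gene symbol, with all 3 libraries in 1 table. The build, GRCh38, is taken from the submitters' processing notes. The annotation, the counting tool and the use of strand are not given in the sources used here, so reads shared between overlapping genes or copies are reported as uncertain. Their criteria with limma (fold over 1.5 or under 0.67, adjusted p under 0.05) need replicates, and only the fold could be kept.

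From the deposited counts, TMM factors were computed with edgeR 4.0.16 (R 4.3.3) and were 1.02 for control, 1.12 for Rg3 and 0.879 for TAM. Relative to library totals, TMM moved the median of all genes by -0.14 (Rg3) and 0.21 (TAM) on the log2 scale. A gene was compared with at least 10 counts in either library, which all 9 members had. For folds, any count below 3 was set to 3. Intervals are exact Clopper-Pearson 95% intervals on the reads of a gene, from SciPy 1.17.1 (Python 3.11.15), and reads without molecular identifiers are not independent molecules. The composition trend was a loess (span 0.3) over GC content and length of the longest GENCODE 29 transcript, which 86.6% of the genes compared for Rg3 and 87.2% of those for TAM could be matched to. Scripts were tested on simulated counts. No p-value is given for the members.

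The 9 members and all gene lists were chosen with earlier results of these data known. The genes named beyond the members were ACAT2, LSS and the paralog IDI2, and from each list the 2 highest and 2 lowest genes of each comparison with at least 50 counts in either library. Some genes of these lists are not reported here by name. ACSS2, SREBF2 and the value of MBTPS2 with Rg3 fall outside this and were chosen after their values were seen. Alternatives tried were library totals, DESeq2 1.42.0 size factors, the trend, other count minimums, stricter calls, a binomial criterion on reads and other transcript lengths. The protein-coding transcript lengths and the sum of FDPS with its pseudogenes were added after the data were examined.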

Additional observations from a re-analysis of the deposited data

How the results depend on the processing

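Each value rests on 1 library per condition, so no replicate could be left out, and the intervals cover counting error only. No paired analysis was possible because there is only 1 library for each condition. With DESeq2 size factors, with at least 1 count in either library and with a further binomial criterion on the reads (adjusted p under 0.05), the counts and medians of members and genes stayed within 1.5 times or within their intervals.

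With division by library totals, the median log2 fold change of the members with Rg3 was 1.89, 2 members and 1576 genes were called higher with TAM, and for TAM against Rg3 3105 genes were called higher and the members' median was -1.44. Without the composition trend, 1183 genes were called higher and 1511 lower with Rg3 at a members' median of 2.05. With TAM, 1 member was then called higher, 0 lower, and 2181 genes lower, at a members' median of 0.36. For TAM against Rg3, 0 members were called higher, with 2891 genes higher and 2661 lower, and a median of -1.64. With the same trend on protein-coding transcripts, chosen after seeing the data, 804 genes were higher and 1097 lower with Rg3 (median of the members 1.94). With TAM, 1 member was higher, 0 lower, 1449 genes higher and 1703 lower (median 0.24). For TAM against Rg3, 0 members were higher, 2175 genes higher and 2069 lower (median -1.60).

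With a minimum of 50 counts, 2139 genes were called lower with Rg3 and 2529 with TAM, the fewer genes tested being part of the construction. With calls at a fold over 2 or under 0.5, 1470 genes were higher and 1149 lower with Rg3. With TAM, 1 member was higher, 0 lower, 862 genes higher and 1824 lower. For TAM against Rg3, 2781 genes were higher. In the order per kilobase, 4 members kept their rank in the control with protein-coding lengths, and 5 kept it with Rg3 when the union of exons was used. Except for the filter and the stricter calls, the cause of these shifts was not tested. Of the single-member values, 62 moved beyond their counting interval and 49 did not, and no called value changed sign under these alternatives.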
